A study of Caenorhabditis elegans with 2 samples.

Results

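K11H12.t1 is the gene for the selenocysteine tRNA (tRNA-Sec) of Caenorhabditis elegans, 1 of 612 tRNA genes annotated in the nuclear genome and the only one with that product. It was chosen by the signal, the rank and the summit position of the SNPC-4 region beside it, so these values are given as a description and carry no test. Exactly 1 candidate region had its summit within 200 bp of the gene in each of the 3 lists examined, and in each list it was the strongest region beside any nuclear tRNA gene. Its signal was 686 in the pooled list, 310 in replicate 1 and 380 in replicate 2, against medians of 15.6, 8.57 and 8.87 for the regions at the other tRNA genes. The summit lay 67 bp upstream of the first base of the tRNA in the pooled list and in replicate 1, and 69 bp upstream in replicate 2.

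The data were 2 ChIP-seq libraries, biological replicates 1 and 2 of a single group, prepared from mixed-stage embryos, with the sexes mixed. ChIP-seq sequences the DNA that is recovered with an antibody against a chromatin protein. Both libraries came from strain OP179, which carries the allele unc-119(ed3) on chromosome III and the insertion wgIs179, and the protein studied was eGFP-tagged SNPC-4. The labels list snpc-4 as the antibody and do not say whether the tag or the protein itself was bound, no control library is among the samples, and the depth of each library is unknown. The authors' signal value ranks the regions of a list, so signals are compared within a list and ranks between lists; the pooled list draws on the same reads as both replicate lists and is not a further measurement. Each list held 30000 candidate regions, a number that reaches into weak background, and "strong" below means one of the 1099 highest signals of a list, 3.66% of the pooled regions. Cells and tissues of the embryo were pooled, so a signal is an average over them.

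SNPC-4 belongs to SNAPc, a complex named for activating snRNA genes, and contacts DNA. The complex recognises the proximal sequence element upstream of those genes and helps to recruit either RNA polymerase II or RNA polymerase III. Most tRNA genes are transcribed by RNA polymerase III from promoters that lie inside the gene, the A box and the B box. The tRNA-Sec gene of vertebrates is an exception: it carries a proximal sequence element and a TATA box upstream of the gene, as the U6 snRNA gene does, and SNAPc acts there. The product delivers selenocysteine to UGA codons; it is first charged with serine and the serine is then converted on the tRNA. In C. elegans, trxr-1, a thioredoxin reductase, is the known selenoprotein gene.

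The gene spans 86 bp at chromosome IV:658181-658266 of ce11 (WBcel235), on the plus strand. It lies inside an intron of K11H12.8, a protein-coding gene on the same strand annotated as a growth hormone-inducible transmembrane protein (IV:655390-658626). The intron spans IV:658019-658336, is 318 bp long, and is annotated in 3 of the 4 mRNA transcripts. It leaves 162 bp before the tRNA gene and 70 bp after it. The stretch before the gene holds the summit in all 3 lists and is shown first, with the 12-base motif match described further on and the TATA letters in capitals. The gene itself is shown second, with the anticodon TCA and the B box letters in capitals. Both are read 5′ to 3′ on the gene's strand from the RefSeq sequence of WBcel235.
K11H12.t1, intron before the gene, IV:658019-658180: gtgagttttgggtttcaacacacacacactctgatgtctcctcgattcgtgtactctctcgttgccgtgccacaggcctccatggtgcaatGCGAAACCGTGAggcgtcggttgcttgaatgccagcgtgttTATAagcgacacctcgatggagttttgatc
K11H12.t1, tRNA gene, IV:658181-658266: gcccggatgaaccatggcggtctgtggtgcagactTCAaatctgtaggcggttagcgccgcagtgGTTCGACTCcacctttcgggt
The anticodon occupies bases 36 to 38 of the gene and pairs with the UGA codon. The B box letters searched were GTTCGANNC, which stand at bases 66 to 74 here. They occur in the sense direction in 440 of the 611 other nuclear tRNA genes, 72.0%, and in the antisense direction in 22 of them, 3.60%. A run of TTTT, the usual RNA polymerase III terminator, starts 2 bp after the gene. Such a run within 30 bp after the 3′ end is found at 604 of the 611 others, 98.9%. The internal B box and the terminator are thus features that K11H12.t1 has in common with most tRNA genes by these letters.

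The gene sequence occurs 1 time in the nuclear genome with both strands searched, as does the whole 357-bp pooled region. Among the other tRNA genes, 142 of 611, 23.2%, have a sequence found in a single gene. Whether every stretch of read length within the region is also unique was not tested. How the authors treated reads that align to several places is not known from the sources used here, and its part in the tRNA signals was not tested. Against the tRNA genes with a unique sequence alone, the median ratio of K11H12.t1 was 52.1, compared with 44.0 against all others.

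The K11H12.t1 region was near the top of every list. Its signal of 686 in the pooled list was rank 44 of 30000, 310 in replicate 1 was rank 45, and 380 in replicate 2 was rank 41. On chromosome IV it was rank 7 in all 3 lists, among 5013, 4840 and 5133 regions. It stood at 71.3, 56.8 and 64.4 times the median signal of the whole list in the pooled, replicate 1 and replicate 2 lists, and at 16.9%, 14.6% and 19.5% of the strongest region. The authors' −log10 q was 2.71, 2.20 and 2.58, which is the highest value in each list and is shared by 776, 872 and 566 regions, so it does not rank the region further. The region ran from 657948 to 658304 in the pooled list, from 657979 to 658269 in replicate 1 and from 657959 to 658287 in replicate 2. The summits were at 658114, 658114 and 658112, so the replicates placed it within 2 bp of each other. The midpoints of the regions were 55, 57 and 58 bp upstream of the gene, a little closer to it than the summits.

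The surrounding 5 kb on either side held 7 other regions in the pooled list, 8 in replicate 1 and 8 in replicate 2. One of these was strong in each list, at 3266, 3243 and 3241 bp upstream with signals of 130.8, 65.99 and 65.2. The second highest had signals of 13.8, 11.6 and 10.8, at ranks 6023, 2442 and 3011 of their lists, against list medians of 9.63, 5.46 and 5.90. The nearest other region was 444 bp from the gene in the pooled list (signal 10.2), 406 bp in replicate 1 (signal 11.6) and 826 bp in replicate 2 (signal 4.43). The closest other annotated non-coding RNA genes were the snoRNA genes K11H12.13, at 3820 bp, and K11H12.12, at 4151 bp. No other annotated non-coding RNA gene therefore lay within 200 bp of the summit.

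**Figure D1:**
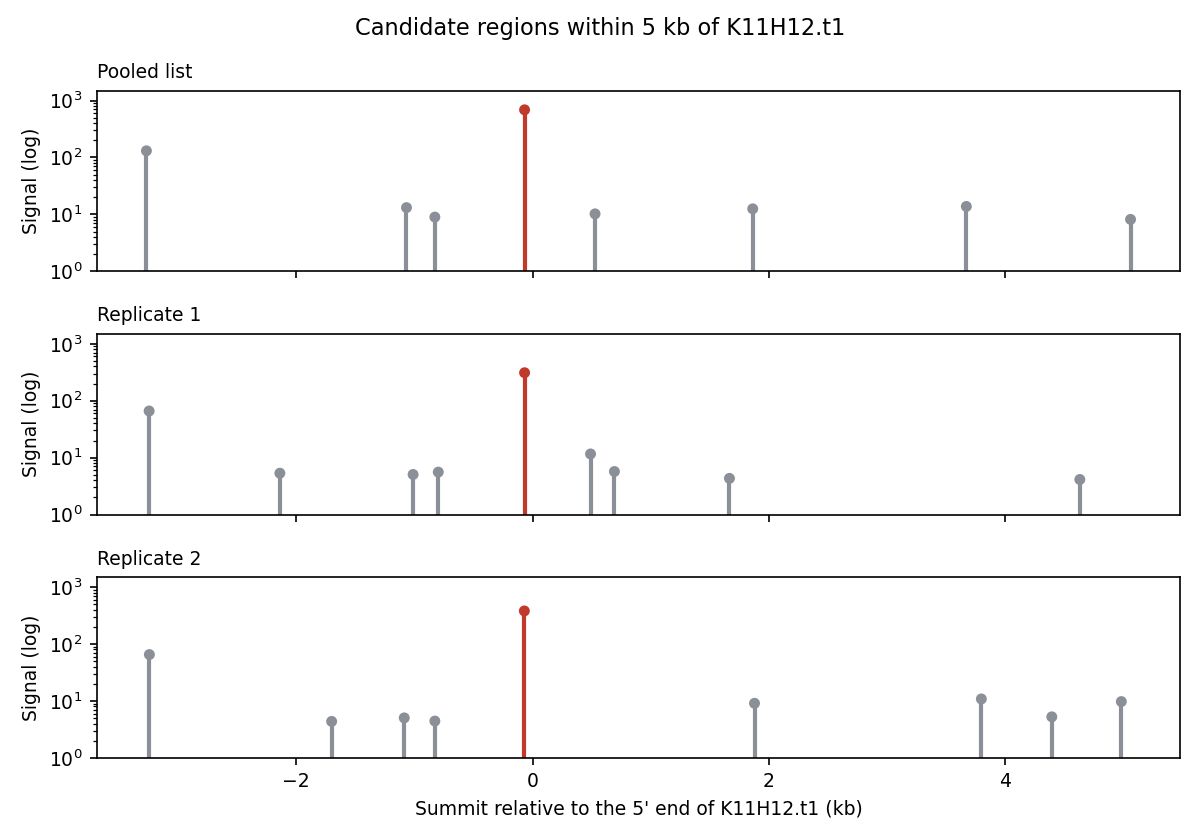
Candidate regions within 5 kb of K11H12.t1 in the pooled list and both replicate lists. The x axis is the summit position relative to the 5′ end of the gene in kb, the y axis the authors' signal on a log scale, and red marks the K11H12.t1 region (686, 310 and 380); in each list a single other strong region stands at 3266, 3243 and 3241 bp upstream.

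A candidate region of any signal within 200 bp was found at 50.5% of all 612 nuclear tRNA genes in the pooled list, 49.2% in replicate 1 and 44.6% in replicate 2. A strong region was found at 10.1%, 9.97% and 9.48% of them. Since the rule used the region at K11H12.t1, its presence among these is not a result. Of the 611 other genes, 308, 300 and 272 had a region and 61, 60 and 57 had a strong one, and 30 genes had a strong region in all 3 lists. The 61 genes of the pooled list shared 56 distinct strong regions, because some tRNA genes lie close together. The regions at other tRNA genes had quartiles of 10.7 and 25.2 in the pooled list, 5.34 and 14.8 in replicate 1, and 5.86 and 13.3 in replicate 2. K11H12.t1 was 44.0, 36.2 and 42.9 times their medians. Their median rank was 4360, 5227.5 and 5351, whereas K11H12.t1 was among the first 45 in each list. Only 3 other tRNA regions in each list had over 50% of its signal, and 10, 16 and 11 had over 10%.

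**Figure D2:**
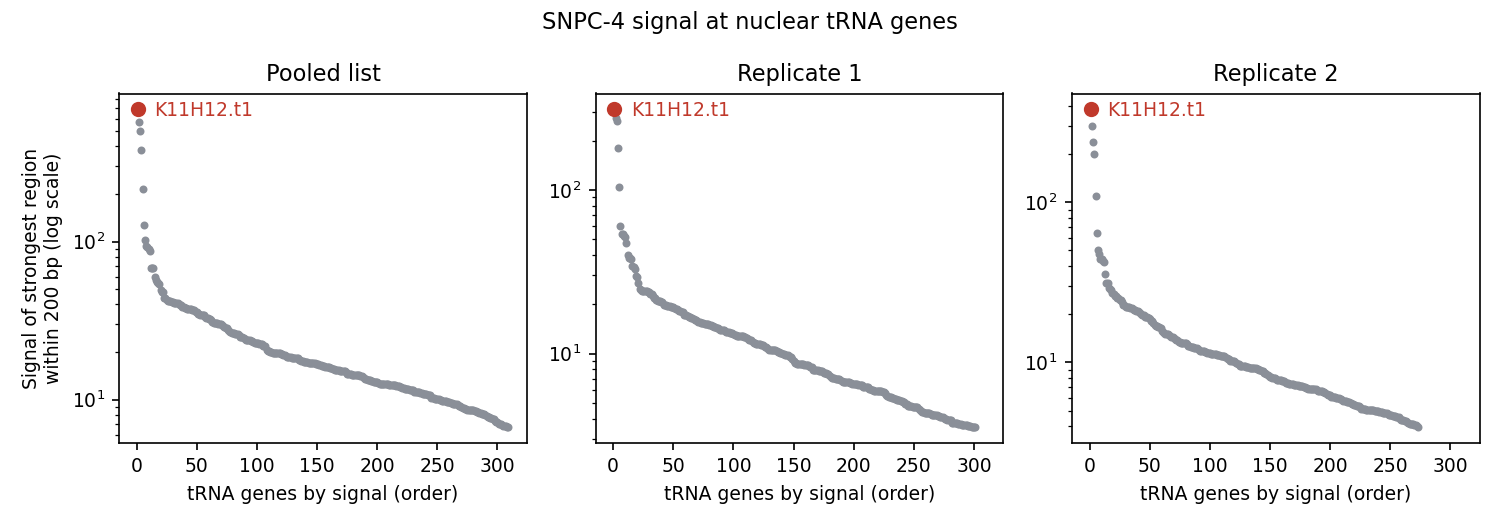
Signal of the strongest region within 200 bp of each nuclear tRNA gene that has one, in decreasing order, for the pooled list and both replicates (y axis on a log scale). K11H12.t1, in red, is first in each panel at 686, 310 and 380; after the first few genes the values run down to the lowest signals of the lists.

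The tRNA region with the next highest signal was at M01E5.t1, a lysine tRNA gene, with 569 in the pooled list, 276 in replicate 1 and 298 in replicate 2. K11H12.t1 was 1.21, 1.12 and 1.28 times as high. The M01E5.t1 summit was 82 bp upstream of the tRNA gene and also 50 bp upstream of sls-2.9, a gene for an SL2-type spliced leader RNA, so this region cannot be assigned to one of them. It was the only one of the 61 other tRNA genes with a strong pooled region that had a gene of another small RNA class beside the summit. Without such regions the next was C27A2.t1, an isoleucine tRNA gene, with 501, 263 and 237, which K11H12.t1 exceeded 1.37, 1.18 and 1.60 times. ZC412.t1, for phenylalanine, followed with 380, 179 and 201, and Y37A1B.t1, for alanine, with 215, 104 and 110. The order of the first 5 tRNA genes in the pooled list therefore ran from K11H12.t1 over M01E5.t1, C27A2.t1 and ZC412.t1 to Y37A1B.t1, with M01E5.t1 and C27A2.t1 closest to each other in replicate 1.

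The next 6 tRNA genes had pooled signals between 87.6 and 127. K06A4.t1, for alanine, had 127 in the pooled list, T21B4.t1, for isoleucine, 103, and ZK1067.t1, for tyrosine, 94.1. T19C4.t1, for leucine, had 92.7, C37A2.t1, for cysteine, 90.1, and F11H8.t1, for threonine, 87.6. In replicate 1 these 6 genes lay between 47.6 and 60.2 and in replicate 2 between 42.6 and 64.4. None reached the level of Y37A1B.t1 in any list. The serine tRNA genes, whose products are charged by the same synthetase as tRNA-Sec, comprised 39 genes, of which 18 had a pooled region and 2 a strong one. The highest of them were F42A10.t1 with 39.9, ZC455.t1 with 36.0 and E03E2.t1 with 25.9. A position inside a protein-coding gene on the same strand, as for K11H12.t1, was found for 166 other tRNA genes, 16 of them with a strong region. A further 124 lay inside a gene on the opposite strand, 12 of them strong, and 321 in no protein-coding gene, 33 of them strong. Over all 611 other tRNA genes, 308 (50.4%) had a pooled region and 61 (9.98%) a strong one. Each of the host groups was near the latter share, so these counts are not a result about host position.

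The summit of K11H12.t1 was farther upstream than that of most strong tRNA regions. Of the 61 other genes with a strong pooled region, the summit was upstream of the gene in 37, inside it in 17 and downstream in 7. Their median position was 19 bp upstream, with quartiles from 24 bp downstream of the 5′ end to 32 bp upstream. At M01E5.t1, whose region is shared with sls-2.9, the summit was farther upstream than at K11H12.t1 in every list. It was 82 bp upstream in the pooled list, 70 bp in replicate 1 and 82 bp in replicate 2. At C27A2.t1, ZC412.t1 and Y37A1B.t1 the pooled summit was 16, 19 and 18 bp upstream. At ZK1067.t1, C37A2.t1 and T19C4.t1 it was 55, 49 and 46 bp upstream, and at K06A4.t1, T21B4.t1 and F11H8.t1 it was 27, 26 and 33 bp upstream. In all, 8 of the 61 had a summit within 20 bp of the K11H12.t1 distance. Over all 308 other genes with a pooled region, 138 summits were upstream, 93 inside and 77 downstream, and 26 were within 20 bp of that distance.

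**Figure D3:**
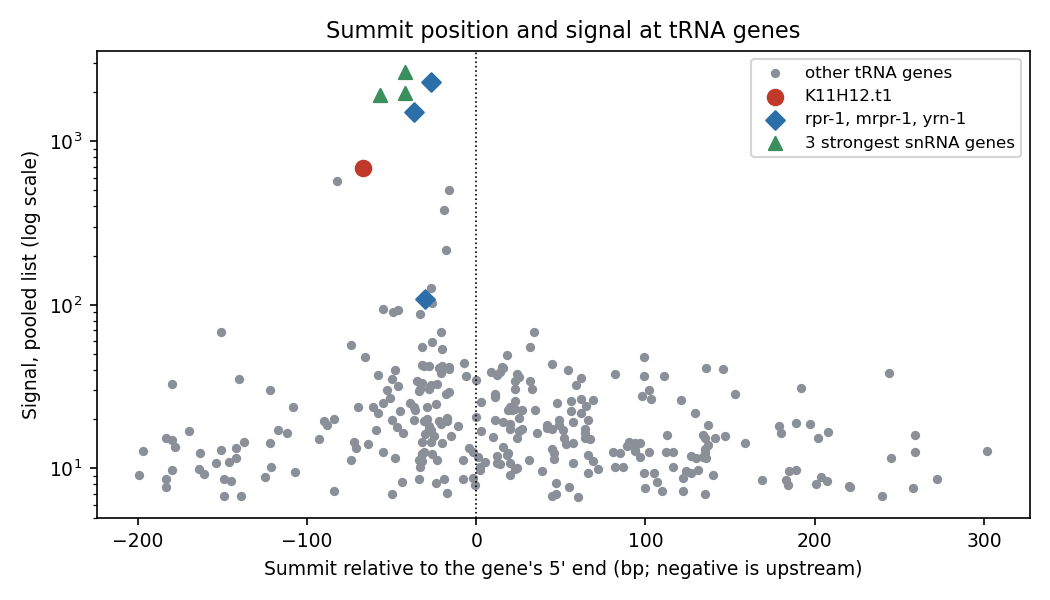
Summit position relative to the 5′ end of the gene in bp (x axis, negative is upstream) and pooled signal on a log scale (y axis) for K11H12.t1, 308 other nuclear tRNA genes, rpr-1, mrpr-1 and yrn-1, and the 3 strongest snRNA genes. K11H12.t1 is at 67 bp upstream with a signal of 686, above the cloud of tRNA genes and farther upstream than the 3 snRNA genes at 42, 42 and 57 bp.

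By signal the K11H12.t1 region lay among those of genes classically bound by SNAPc, but it was not the only tRNA gene there. M01E5.t1 (569), C27A2.t1 (501), ZC412.t1 (380), Y37A1B.t1 (215) and K06A4.t1 (127) were also above the pooled snRNA median of 119. Of 99 annotated snRNA genes, 70 had a pooled region and 60 a strong one, with a median signal of 119 over those with a region, and 8 were above K11H12.t1 in each of the 3 lists. In the pooled list sup-39 and mir-1831, both among those 8, share a region with a signal of 1335. Of 18 SL2-type spliced leader RNA genes, 17 had a region and 16 a strong one, with a median of 514, and 6 were above K11H12.t1 in the pooled list, 6 in replicate 1 and 5 in replicate 2. The strongest snRNA genes were W05B2.8, with a pooled signal of 2651 at rank 6, sup-6, with 1974 at rank 11, and C52E4.8, with 1910 at rank 12. The strongest SL2-type genes were sls-2.4 with 4055 at rank 1, sls-2.1 with 2899 at rank 4 and sls-2.8 with 2764 at rank 5. The median distance of strong summits was 48 bp upstream at snRNA genes and 41.5 bp at SL2-type genes, both nearer to the gene than the 67 bp of K11H12.t1.

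The RNase P, RNase MRP and Y RNA genes were set beside K11H12.t1. In other animals, RNA polymerase III transcribes such genes from promoters outside the gene. How K11H12.t1 is transcribed was not tested. rpr-1, the RNA subunit of RNase P, which trims the 5′ ends of tRNAs, had signals of 2299, 1109 and 1194 in the pooled, replicate 1 and replicate 2 lists. mrpr-1, the RNA of RNase MRP, which acts in rRNA processing, had 1519, 764 and 753. yrn-1, a Y RNA, had 108, 49.9 and 61.6, at ranks 161, 179 and 158. K11H12.t1 therefore lay below rpr-1 and mrpr-1 and above yrn-1 in every list. Summits were 27, 27 and 25 bp upstream at rpr-1, 37, 37 and 38 bp at mrpr-1, and 30, 11 and 52 bp at yrn-1, where the replicates placed it least closely. All were nearer to the gene than the summit of K11H12.t1 in the same list.

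The regions directly above K11H12.t1 in the pooled list lay, at rank 39, in srd-70, a protein-coding gene, with 799, then 45 bp upstream of the snoRNA gene F25H2.15 with 766 and 61 bp upstream of the ncRNA gene W01D2.9 with 758. Ranks 42 and 43 were at sls-2.14 and sls-2.5, with 698 and 690, 41 and 40 bp upstream. Directly below came a region with 679 whose summit lay inside the ncRNA gene K07C10.3. The snoRNA gene K07C10.2 and K07C10.6 were within 200 bp of it. The summit was 135 bp downstream of the 5′ end of K07C10.2, past the end of that gene. Rank 46 was 788 bp from egrh-2, a protein-coding gene, with 620, rank 47 was 71 bp upstream of the snoRNA gene Y67A10A.14 with 594, and rank 48 lay in cng-1 with 587. Rank 49 was the region shared by sls-2.9 and M01E5.t1. Apart from the shared one, none of these 10 neighbouring regions was at a tRNA gene. Regions at tRNA genes are few in the list as a whole, 316 of the 30000 pooled regions. Among the 1099 strong regions, 56 were at a tRNA gene other than K11H12.t1. The count for the neighbours is therefore not a result about K11H12.t1.

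Likeness to K11H12.t1 was measured as the absolute difference of log2 pooled signal among 126 small RNA genes whose summit was within 20 bp of the same upstream distance, of which 47 were snoRNA, 36 snRNA, 26 tRNA, 11 miRNA and 6 SL RNA genes. Genes annotated as ncRNA were not considered. One of them, W01D2.9, with 758 and its summit 61 bp upstream, was closer in signal than any gene considered. The nearest of those considered was Y67A10A.14, a snoRNA gene, with a difference of 0.21. smy-3, another snoRNA gene, with a signal of 802 and its summit 47 bp upstream, differed by 0.22. M01E5.t1 and sls-2.9, which share a region, differed by 0.27, and sls-2.7, with 561 and its summit 51 bp upstream, by 0.29. These are single values from the pooled list; the ranks of Y67A10A.14 were 46 and 52 in replicates 1 and 2, and those of smy-3 were 40 and 37.

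Sequence was not used to choose the gene. A 12-base motif was learned from the 100 bp upstream of the 99 snRNA genes, 97 distinct sequences, with no signal value used; it is called the snRNA upstream motif here. Each gene was then given its best match on the sense strand in its own 100 bp upstream, as log2 odds against base composition. K11H12.t1 had a match of 12.9, the highest of the 612 nuclear tRNA genes, at GCGAAACCGTGA, from 71 to 60 bp before the gene. None of the 611 other tRNA genes reached it, while 60 of 99 snRNA genes did (60.6%), as did 10 of 18 SL2-type genes and 60 of 19971 protein-coding genes (0.300%). The median best match was −1.11 over the other tRNA genes, with quartiles of −3.98 and 2.27, against 14.3 for snRNA genes, 14.8 for SL2-type genes and −3.49 for protein-coding genes. The snRNA genes are the ones the motif was learned from. Their share and median are therefore not independent of the motif and give no benchmark for the other classes. The lead over the next tRNA gene was small: K02A4.t1 had 12.85, at 23 bp before the gene, then F55F3.t2 12.4 at 64 bp, F13G11.t1 11.96 at 70 bp, K01A12.t3 11.5 at 86 bp and Y104H12A.t1 11.2 at 55 bp. K11H12.t1 was rank 2 with a motif of 8 or 16 bases or with both strands searched, rank 1 with 20 bases, rank 5 with 200 bp searched, and rank 194 with a motif learned from the 18 SL2-type genes. A match of letters is a description and does not show a bound site.

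The position of the match and a TATA gave a second description. The match ran from 71 to 60 bp before K11H12.t1 and the TATA started 30 bp before it, with 29 bases between them, and the pooled summit was 1.5 bp from the middle of the match. mrpr-1 had its match from 72 bp and TATA from 30 bp, rpr-1 from 70 and 28 bp, and yrn-1 from 70 and 28 bp, with scores of 18.3, 21.5 and 6.73. The layout of K11H12.t1 thus lay within 2 bp of those of rpr-1 and yrn-1 and within 1 bp of that of mrpr-1, although the summits differed. To show this, the 100 bp upstream of several of these genes are given below, each 5′ to 3′ on the gene's strand from the RefSeq sequence of WBcel235, with the motif match and the nearest TATA in capitals. The last 2, upstream of ZC412.t1 and Y37A1B.t1, are strong tRNA genes with weak matches of 0.57 and 0.09 and no TATA there. They do not stand for all strong tRNA genes. M01E5.t1, not shown and with a higher pooled signal (569), had a match of 3.79 from 73 bp and TATA from 30 bp.
mrpr-1, II:7200133-7200232, plus strand: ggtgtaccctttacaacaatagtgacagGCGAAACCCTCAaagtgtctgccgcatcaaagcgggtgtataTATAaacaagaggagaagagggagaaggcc
yrn-1, IV:7499408-7499507, plus strand: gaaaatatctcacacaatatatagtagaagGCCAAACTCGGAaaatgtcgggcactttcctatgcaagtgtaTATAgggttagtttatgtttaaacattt
W05B2.8, III:10989579-10989678, plus strand: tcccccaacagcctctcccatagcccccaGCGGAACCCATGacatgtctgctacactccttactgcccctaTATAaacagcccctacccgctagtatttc
T08B6.62, IV:4885650-4885749, minus strand: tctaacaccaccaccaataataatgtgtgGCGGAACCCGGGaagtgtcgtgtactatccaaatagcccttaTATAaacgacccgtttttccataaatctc
sup-6, II:12944968-12945067, minus strand: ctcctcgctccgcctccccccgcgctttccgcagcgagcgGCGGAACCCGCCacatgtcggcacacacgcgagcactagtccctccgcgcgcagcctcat
ZC412.t1, V:14876462-14876561, minus strand: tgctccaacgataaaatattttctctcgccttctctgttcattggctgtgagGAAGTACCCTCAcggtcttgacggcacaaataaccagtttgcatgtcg
Y37A1B.t1, IV:14013877-14013976, minus strand: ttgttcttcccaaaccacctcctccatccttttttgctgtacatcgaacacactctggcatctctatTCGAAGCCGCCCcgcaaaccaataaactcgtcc
In mrpr-1, yrn-1, W05B2.8 and T08B6.62 the capitals stand at nearly the same places as in K11H12.t1, and in sup-6 the match is nearer to the gene and TATA is missing. Other strong genes, not shown, also differed in the match. C52E4.8 had it from 63 bp, with TATA from 31 bp. sls-2.1 had its best match from 86 bp, with a score of only −4.16, and TATA from 30 bp. K11H12.t1 matched the strongest letter of the motif at 8 of 12 places, W05B2.8 at 9, T08B6.62 at 10 and sup-6 at 11. This count does not set K11H12.t1 apart from other tRNA genes, since ZC412.t1 also matched 8 and K02A4.t1, F55F3.t2 and F13G11.t1 matched 9; the score weights each place by how uniform it is.

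The 60 snRNA genes with a match at least as high as that of K11H12.t1 fell into groups by position, a split made after the values were seen. In 51 the match started 58 to 65 bp before the gene, and 10 of these, 19.6%, had TATA in the 50 bp before it. In 6 the match started 68 to 75 bp before the gene, as in K11H12.t1, and 5 of these, 83.3%, had TATA. Those 6 were W05B2.8, F54D8.7, T08B6.62, Y17G9A.85 and Y17G9A.90, with TATA, and T27E4.22, without it. The upstream sequences of T08B6.62, Y17G9A.85 and Y17G9A.90 are much alike, so the 83.3% does not rest on 5 unlike sequences. T27E4.22 shares its region, with a signal of 182, and the score of its match with T27E4.12, which is counted in the larger group because its own 5′ end is 60 bp from the match and not 75, so these 2 entries are not separate. The summits of the 6 had a median of 57.5 bp upstream, against 46.5 bp in the 44 genes of the larger group that had a region. The remaining 3 of the 60 were in neither group, and 1 of them, mir-1831, had TATA. It shares its region, with a signal of 1335, and the score of its match with sup-39 of the larger group. These entries are not separate either. The size of the groups depends on the score cut. Below it, further snRNA genes had their best match from 71 bp, such as Y9C9A.111 (11.3), K09C6.12 (11.1) and C28A5.7 (9.99). TATA was not counted by position for those. The annotation used names no member of either group by its snRNA type. Over whole classes, TATA stood in these 50 bp in 34 of 99 snRNA genes (34.3%), 3 of 18 SL2-type genes, 108 of 611 other tRNA genes (17.7%) and 5066 of 19971 protein-coding genes (25.4%). Of the other tRNA genes, 60 had their best match starting at 68 to 75 bp. Only 6 of those had TATA starting 25 to 35 bp before the gene, and the highest score among these 6 was 8.41, at F10C1.t1. M01E5.t1, the next tRNA gene after K11H12.t1 by pooled signal (569), was also among these 6. Its match started at 73 bp with a score of 3.79, and its TATA at 30 bp. The layout alone is therefore not particular to K11H12.t1 among strong tRNA genes.

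**Figure D4:**
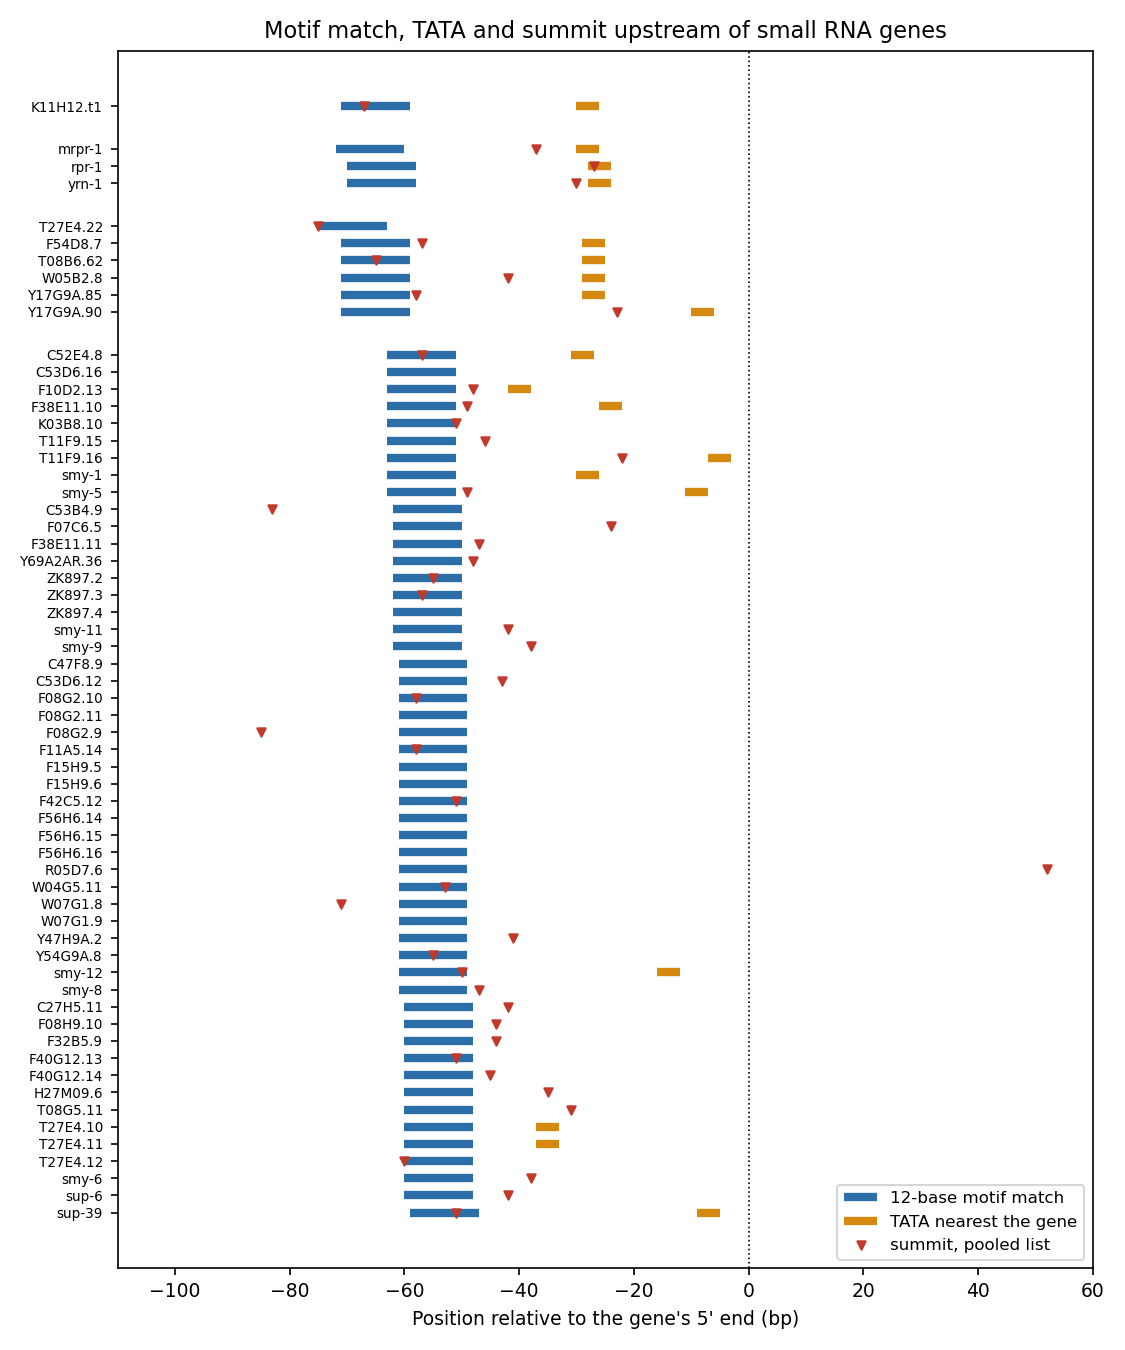
Position of the 12-base motif match (blue), the TATA nearest the gene (orange) and the pooled summit (red) relative to the 5′ end in bp, for K11H12.t1, mrpr-1, rpr-1 and yrn-1, and the snRNA genes with a match at least as high whose match starts 68 to 75 or 58 to 65 bp before the gene; 6 summits lie outside the axis. The match of K11H12.t1 starts at 71 bp, with the upper group of 6 snRNA genes, and its summit at 67 bp lies on it.

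Score and signal were also set side by side among the other tRNA genes. Over the 308 with a pooled region, Spearman's rho between score and signal was 0.068, given as a description over genes that share the libraries and are not independent. The median score was −0.41 for the 61 genes with a strong region and −1.13 for the other 550. C27A2.t1, the strongest tRNA gene with no other small RNA gene beside it after K11H12.t1, had a score of −3.75. Of the tRNA genes with the next best matches, F55F3.t2, F13G11.t1 and Y104H12A.t1 had pooled signals of 12.6, 18.2 and 14.5. None of these was strong, and K02A4.t1 and K01A12.t3 had no pooled region. The 100 bp upstream of K11H12.t1 were 55% G and C, against a median of 42% for the other tRNA genes with quartiles of 35% and 47%, and the part of base composition in the match was not tested.

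**Figure D5:**
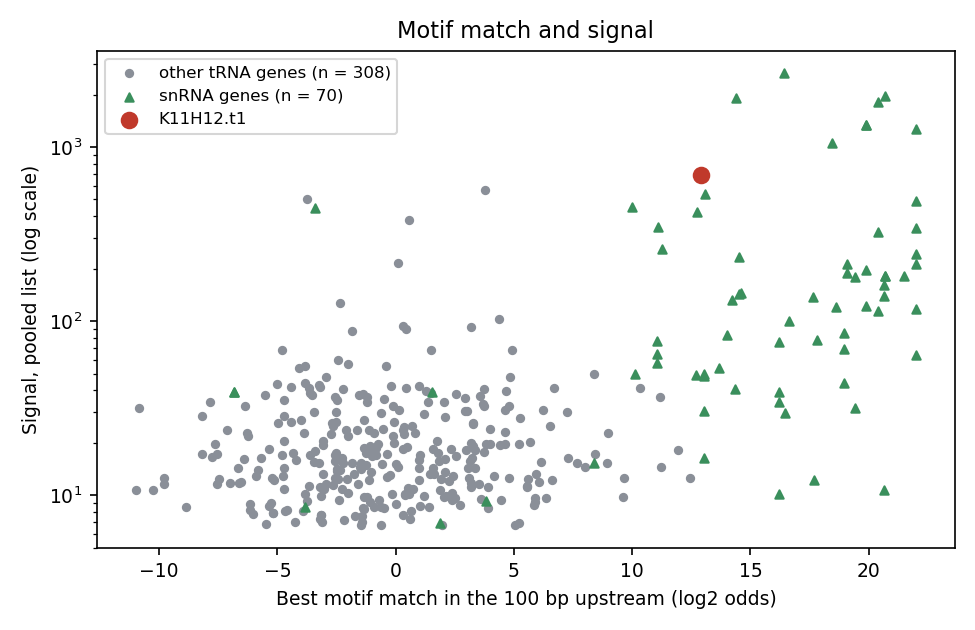
Best match to the snRNA upstream motif in log2 odds (x axis) and pooled signal on a log scale (y axis) for K11H12.t1, 308 other tRNA genes and 70 snRNA genes that have a region. K11H12.t1, at 12.9 and 686, is the tRNA gene farthest to the right and lies among the snRNA genes, from which the motif was learned.

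The genes that make and use selenocysteine were examined beside the tRNA gene, with a candidate region within 200 bp of a transcript start counted in each list. Such a region was found at 21.0% of 19971 protein-coding genes in the pooled list, 20.6% in replicate 1 and 19.7% in replicate 2. Of the 6 genes listed, 5 were matched in the annotation and selb-1 was not. Among the 5, 1 had a region in each list and none had a strong one. trxr-1, the thioredoxin reductase that contains selenocysteine, had a signal of 9.57 at rank 15182 in the pooled list and 5.62 at rank 16630 in replicate 2, and no region in replicate 1. sars-1, the seryl-tRNA synthetase, had a signal of 7.95 at rank 6308 in replicate 1 alone. seld-1, which makes selenophosphate, pstk-1, which phosphorylates the serine on the tRNA, and secs-1, which places the selenium, had no region in any list. The count of 1 of 5 is at the level of all protein-coding genes and is not a result about these genes.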

How the data were processed

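The 2 ChIP-seq libraries of eGFP-tagged SNPC-4 from mixed-stage embryos, replicates 1 and 2, were analysed through the authors' region lists on ce11: 30000 candidate regions for each replicate and for both pooled. The deposited lists give a signal value and −log10 of the q value for each region, and the summit's offset within it. The labels name a control experiment; the aligner, the caller and the treatment of reads with several alignments are not named in the labels or the lists, and no read depth is given, so no interval that needs counts is printed. The ce10 lists were used only for the size of their thresholded list, 1099 peaks, which sets the number of strong regions; 184 of those peaks are on chromosome IV. The thresholded ce11 list used here, 213 peaks, holds chromosome I alone, so it cannot show whether K11H12.t1 passed the authors' threshold on that build.

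Genes came from the RefSeq annotation of WBcel235, the same build as ce11. A region belongs to a gene when its summit is within 200 bp of it, and a gene with several regions takes the strongest. The motif was learned by expectation maximisation (at most 1 site a sequence, pseudocount 0.5) and checked on simulated sequences. Python 3.11.15, numpy 2.4.6, pandas 2.3.3 and matplotlib 3.10.9 were used. No p-value was computed: there is 1 group, and signal, rank and summit position selected the gene. The gene and all lists were chosen with earlier results of these data known. Genes named are K11H12.t1, the 10 next tRNA genes by pooled signal, 5 regions above and 5 below it, the RNase P, RNase MRP and Y RNA genes, the 3 strongest snRNA and SL2-type genes, the 5 genes most like it, the 5 tRNA genes with the next best motif matches, the 3 strongest serine tRNA genes and the genes of selenocysteine use; those listed by motif position, K11H12.12, K11H12.13, F10C1.t1 and the best-scoring genes of alternative motifs were named after their values were seen. Alternatives changed the distance, the replicate, the strong set, the summit, the tRNA genes compared and the motif; a motif of 20 bases was added after seeing the data. Whether replicates came from separate cultures is not stated beyond their being biological replicates.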

Additional observations from a re-analysis of the deposited data

How the results depend on the processing

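Of 31 alternatives, 14 moved the value: by 1 SD of the 2 replicates or more for a rank, ratio or position, to any other rank for the motif, and by over 1.5 times for a count of genes. The other 17 did not. K11H12.t1 stayed the strongest region at a tRNA gene in each replicate alone, within 100 bp, and by overlap of the region with the gene. Within 500 bp it was rank 2 and its ratio to the next region was 0.804, because the region 443 bp from C16D9.t4, with a signal of 854 and beside C16D9.10, then counted. That ratio was 1.37 without regions near another small RNA class, and 1.12 to 1.28 with either replicate alone. The ratio to the median of other tRNA regions ranged from 36.2 to 42.9 with either replicate alone and was 52.1 against tRNA genes with a unique sequence. The rank among all regions was 41 to 45 and the summit 67 to 69 bp upstream with either replicate alone, while the middle of the region was 55 bp upstream. With a strong set of 549 regions, 21 other tRNA genes had one in place of 61; 57 to 60 had one with either replicate alone, 57 within 100 bp and 71 within 500 bp. The motif rank was 2 with 8 bases (behind R04A9.t1) and with 16 bases (behind B0344.t1), 2 with both strands (behind Y105C5B.t4), 5 with 200 bp and 194 with the motif from SL2-type genes; with 20 bases it was 1, at 23.0 against 11.1 for C02D4.t1. The causes were not tested. No paired analysis was possible because both libraries belong to 1 group. Depth is unknown, and with 2 replicates the spread of each value rests on a single difference.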
